A study of Mus musculus with 7 samples.

Results

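The genes described here are 35 genes of protein folding in the endoplasmic reticulum (ER) and of the unfolded protein response, measured in macrophages sorted from mouse brain. They were listed by name, and each was read from the Affymetrix probe set that carried its symbol alone and had the highest mean log2 signal over all 7 arrays. All 35 had such a probe set, among 18193 genes in all, and all 35 passed the filter on low signal that left 12125 genes for testing. The lowest mean of a member over the arrays was 6.64 on the log2 scale, above the background of 4.19 to 4.70 given by unspiked control probe sets.

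Normal brain macrophages came from C57/Bl6 mice 8 weeks old (3 arrays). GL261 macrophages came from tumours of the mouse glioma line GL261, grown for 21 days in the brains of C57/Bl6 mice that carried transplanted GFP-labelled bone marrow (4 arrays). Brains were digested with papain in both groups and cells were taken by GFP and F4/80. Whether the normal brain mice carried GFP marrow, the age of the tumour-bearing mice and whether arrays came from separate mice are not stated, so p-values measure only the spread between these arrays. The values are microarray intensities, analysed as log2(signal + 6), and a fold change on this scale understates the change of dim genes. GL261 replicate 2 stood nearer to normal brain than the other GL261 arrays, with a higher correlation with each normal brain array (0.894 to 0.922, against 0.875 to 0.905 for the others). On it the endothelial genes Cldn5 (8.94 against 4.80 to 5.48) and Slco1a4 (8.00 against 2.79 to 4.57) and the neutrophil gene Ngp (9.20 against 5.27 to 6.08) were higher than on the other GL261 arrays. Some other genes of these cell types did not set it apart, such as S100a9 (13.45 against 13.16 to 13.82) and Tek (6.11 against 3.14 to 6.26). Without GL261 replicate 2, 2 of the 35 genes were called higher and 2 lower, against 2 and 3 with it.

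Secretory and membrane proteins fold in the ER with the help of Hsp70 and Hsp90 chaperones, the lectins calnexin and calreticulin and a family of disulfide isomerases, and proteins that fail to fold are drawn back into the cytosol and degraded. When unfolded protein builds up, the membrane sensors IRE1 (Ern1), PERK (Eif2ak3) and ATF6 act through the transcription factors XBP1, ATF4 and cleaved ATF6 to raise chaperone and degradation genes. IRE1 acts by splicing Xbp1 mRNA and ATF6 by its own cleavage, and neither step has a separate value among these probe sets. Macrophages secrete and take up much protein, and XBP1 is also known for its role in plasma cells.

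The calls among these genes were few and went in both directions. By limma with Benjamini-Hochberg adjustment over all 12125 genes, 5 of 35 (14.3%) were called at an adjusted p under 0.05, against 10.1% of all genes. The disulfide isomerase gene Pdia4 and the degradation factor gene Edem1 rose in GL261, while the co-chaperone gene Dnajb9, the degradation scaffold gene Herpud1 and the phosphatase subunit gene Ppp1r15a fell. Called higher were therefore 2 of 35 against 5.92% of all genes, and called lower 3 of 35 against 4.2%. Fitted log2 fold changes were above 0 for 18 members and below 0 for 17. Their median was 0.01, beside 0.04 over all genes tested. Of all genes called, 58.5% were higher in GL261 (718 against 509 lower), and 47.1% were (494 against 555) with each array centred on the median of the genes tested, a scaling chosen after seeing the data.

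Most changes were small and many were tight. The 95% confidence interval of the log2 fold change lay wholly within 2-fold in either direction for 26 of 35 members (74.3%), against 41% of all genes tested. The median standard error was 0.18 for the members and 0.32 for all genes. Most members lay well above background, and the variance prior of the fit follows the signal. Tight intervals were not particular to the members. Of the 101 other ER genes described below, 70.3% had an interval within 2-fold, and their median standard error was 0.19. The groups did not overlap for 15 of 35 members (42.9%), against 23.4% of all genes and 25.7% of the other ER genes. GL261 was above normal brain in 9 of the 15 and below it in 6. Of the 15, 10 were not called. At an unadjusted p under 0.05 stood 13 members (37.1%), against 26.1% of all genes.

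**Figure D1:**
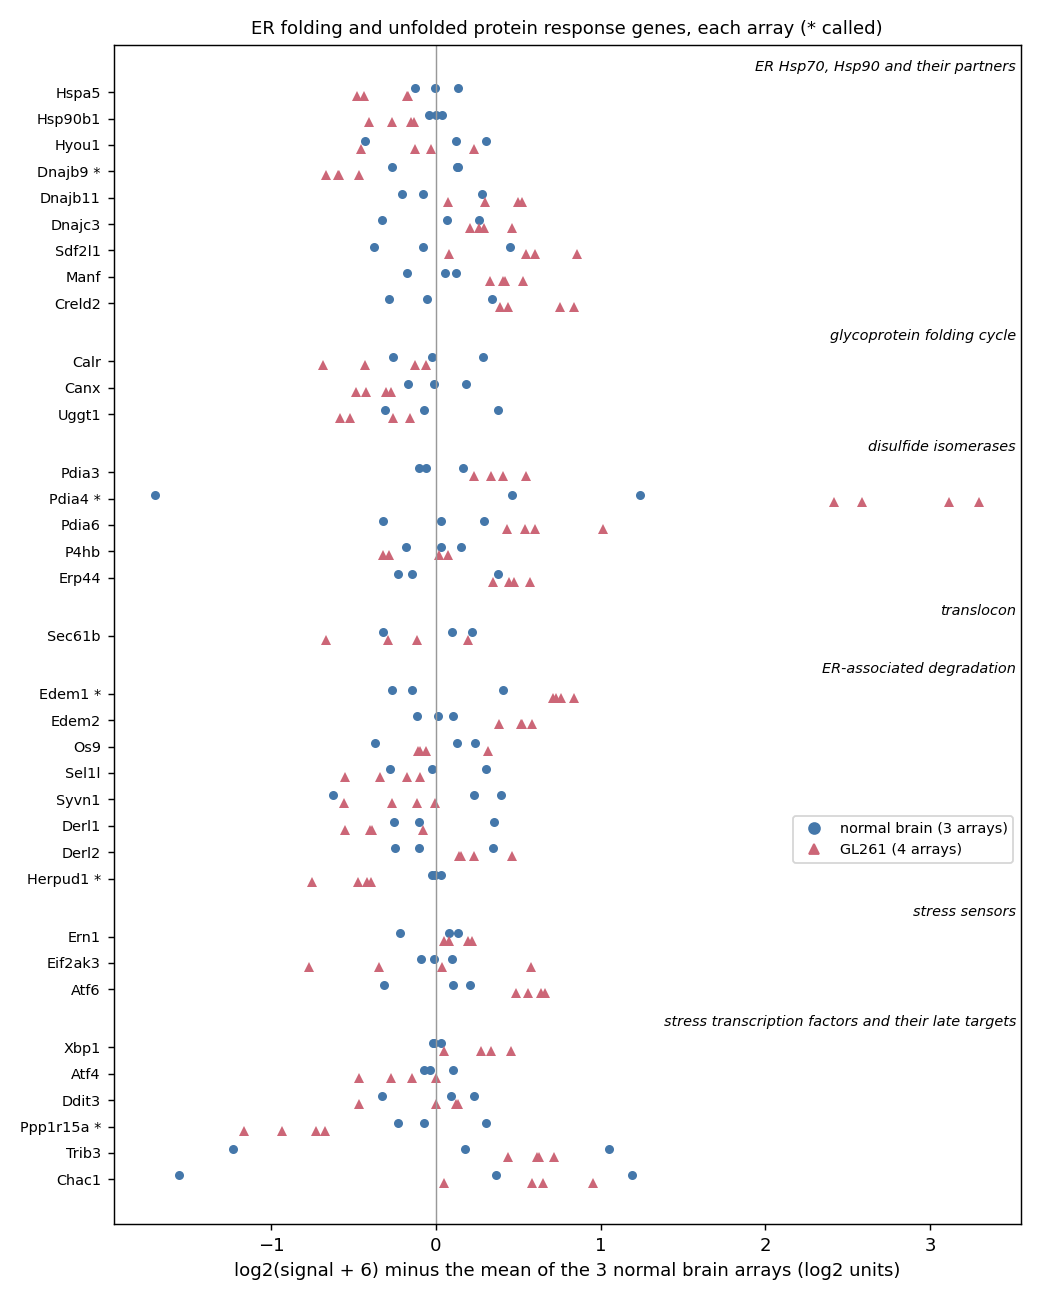
Value of each of the 35 genes on each array, as log2(signal + 6) minus the mean of the 3 normal brain arrays (x axis, log2 units), with circles for normal brain, triangles for GL261 and asterisks for called genes. Most genes stay within 1 log2 unit of the normal brain mean on every array, and Pdia4 has all 4 GL261 arrays far to the right.

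**Figure D2:**
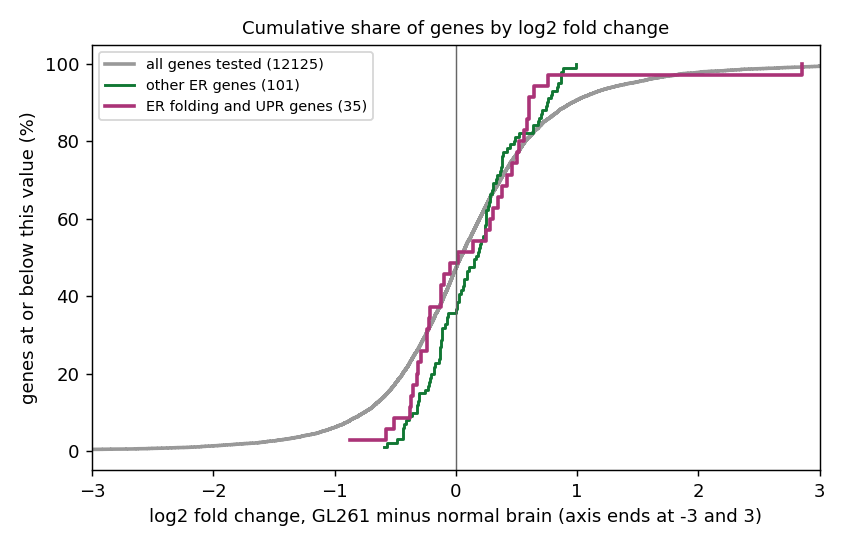
Cumulative share of genes (y axis, percent) at or below each log2 fold change of GL261 minus normal brain (x axis, drawn from -3 to 3) for the 35 genes, 101 other ER genes and all 12125 genes tested. The medians are 0.01, 0.17 and 0.04.

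Each member call except that of Ppp1r15a was lost in some fit without 1 array. Calls over all 12125 genes fell in these fits too, from 1227 to 882 and 880 without normal brain replicate 2 and 3. They fell to 722, 542 and 730 without GL261 replicate 1, 3 and 4. Called higher were 1 of 35 when normal brain replicate 3 was left out, or else GL261 replicate 1 or 4, and 0 without GL261 replicate 3, where limma left 6 members higher at an unadjusted p under 0.05. Called lower was 1 of 35 without normal brain replicate 2 or 3 or GL261 replicate 1 or 3. With a variance prior that does not follow the signal limma called 0 members, with 10 at an unadjusted p under 0.05, and 455 of all 12125 genes. With arrays centred on their medians limma called 0 members lower (3 at an unadjusted p under 0.05), and with the mean of all probe sets of a gene it called 0 higher (6 at an unadjusted p under 0.05). Calls over all genes in these fits were 810 of 12125 and 819 of 11461.

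Promoter sequence itself was not used in choosing the genes. Since they were listed as genes of the unfolded protein response, finding its known response elements among them is a description and no independent result. The ER stress element, bound by ATF6 together with the factor NF-Y, is CCAAT and CCACG with any 9 bases between them. It was searched on both strands, as were the other motifs, in RefSeq windows (GRCm38.p6) from 250 bases before to 50 bases after each transcription start. Of the 35 members 31 had a window, and 8 of these 31 (25.8%) held the element, against 37 of 27025 genes (0.137%). The 8 stretches that follow are on the strand of the gene, with the fixed bases of the element in capitals, and were chosen as the members with this known response element. Where the element lies on the opposite strand it reads CGTGG, then ATTGG.
Hspa5: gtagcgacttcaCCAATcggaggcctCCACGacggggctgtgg
Hsp90b1: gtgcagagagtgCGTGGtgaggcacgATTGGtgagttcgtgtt
Calr: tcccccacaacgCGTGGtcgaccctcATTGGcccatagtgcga
Canx: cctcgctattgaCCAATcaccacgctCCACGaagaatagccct
Creld2: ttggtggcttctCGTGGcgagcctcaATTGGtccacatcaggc
Dnajc3: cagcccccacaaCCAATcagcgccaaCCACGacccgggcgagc
Pdia6: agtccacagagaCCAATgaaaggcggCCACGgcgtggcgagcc
Syvn1: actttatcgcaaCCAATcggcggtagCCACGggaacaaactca

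These stretches lie, in the same order, at chr2:34772013-34772055 (plus strand), chr10:86705521-86705563 (minus), chr8:84847063-84847105 (minus), chr11:50325788-50325830 (minus), chr15:88819508-88819550 (plus), chr14:118937815-118937857 (plus), chr12:17266479-17266521 (plus) and chr19:6046520-6046562 (plus). Counted from the start, the element ran from -65 to -47 in Hspa5 and from -44 to -26 in Syvn1, the nearest to the start. Hsp90b1 held a second copy from -212 to -194. The 8 genes did not share a direction between normal brain and GL261. Their fitted log2 fold changes were above 0 in 3 (Pdia6 0.65, Creld2 0.61, Dnajc3 0.31) and below 0 in 5 (Syvn1 -0.23, Hsp90b1 -0.24, Hspa5 -0.32, Calr -0.32, Canx -0.37), and none of the 8 was called. Their median was -0.24, beside 0.14 for the 23 members with a window and no such element. Some of the 8 genes had other probe sets of the opposite sign, such as Dnajc3 (-0.34) and Canx (0.47).

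The related ER stress element II, ATTGG and CCACG with 1 base between them, was present in 2 members, Herpud1 and Dnajb11, and in 0.0444% of all genes. The composite element of ATF4 and CHOP, TGATG and AA with 1 base between them, was present in Herpud1, Chac1 and Trib3 and in 4.51% of all genes. TGACGTGG, a core bound by XBP1 and ATF6, was in none of the 31 windows and in 0.714% of all genes. Herpud1 was the only called member with any of these motifs in its window, and both of its elements are shown because it carried both a chaperone-type and an ATF4-type element (chr8:94386365-94386399 and chr8:94386305-94386336, plus strand).
Herpud1 ER stress element II: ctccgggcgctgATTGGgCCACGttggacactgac
Herpud1 composite element: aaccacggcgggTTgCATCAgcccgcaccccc

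In these lines the capitals mark the fixed bases, and the composite element reads on the opposite strand. A match is a sequence description and does not show binding in these cells. No match in the windows of Pdia4, Edem1, Dnajb9 and Ppp1r15a says only that these letters are not there.

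**Figure D3:**
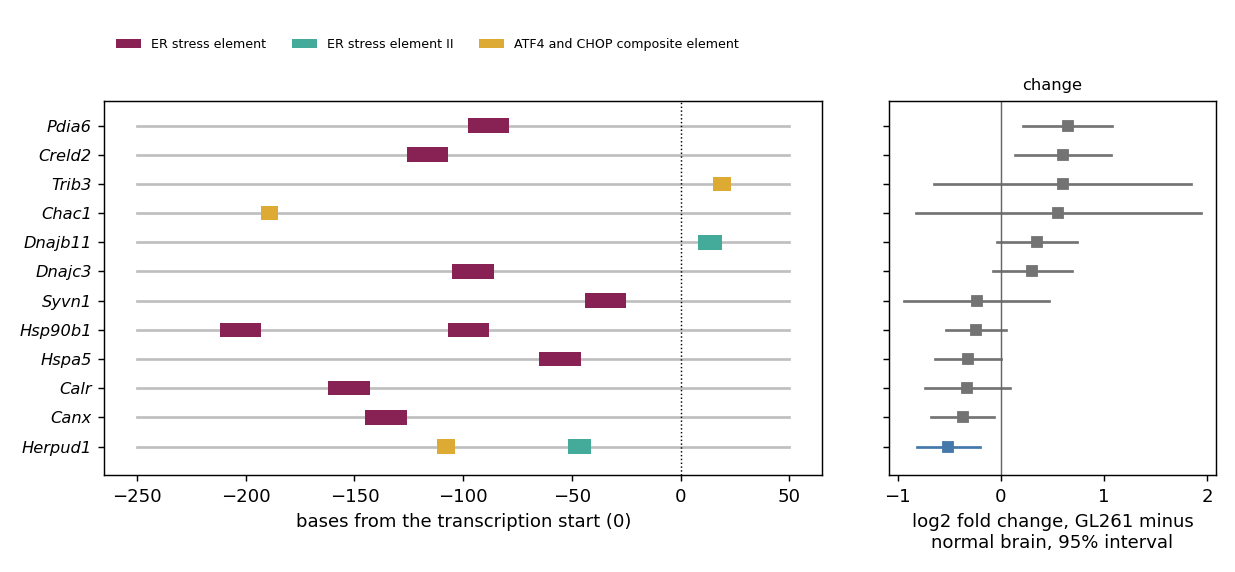
Left, position of each motif (coloured blocks) in the windows of the 12 genes that held one, in bases from the transcription start (x axis). Right, the log2 fold change of GL261 minus normal brain of the same genes with its 95% confidence interval, blue where called lower. Genes with an ER stress element lie on both sides of 0.

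Among the 9 Hsp70 and Hsp90 chaperone and partner genes, 1 fell and 8 were not called. Dnajb9, a J-domain co-chaperone of BiP that is a known XBP1 target, had log2 levels of 12.40, 12.80 and 12.80 in normal brain replicates 1 to 3 and of 12.003, 12.08, 12.08 and 12.20 in GL261 replicates 1 to 4. Every GL261 array was below every normal brain array. The gene (probe set 1417191_at) fell 1.49-fold (-0.58 on the log2 scale, SE 0.15, adjusted p = 0.0296 by limma). The call was lost with arrays centred on their medians (adjusted p = 0.215), without normal brain replicate 2 (adjusted p = 0.0967) or 3 (0.0900), or without GL261 replicate 1 (0.0751), 2 (0.0544) or 3 (0.0757).

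Hspa5, which encodes BiP, the main Hsp70 of the ER, was at 13.52, 13.40 and 13.67 in normal brain and at 13.05, 13.09, 13.36 and 13.36 in GL261. Its GL261 arrays were all lower, but the log2 fold change of -0.32 (95% interval -0.63 to 0.0033) was not called (adjusted p = 0.196). It was -0.11 after quantile normalization (adjusted p = 0.479), and -0.59 and called with the mean of all 3 probe sets (adjusted p = 0.0454), of which the others were at -0.12 and -1.34. Hsp90b1, the Hsp90 of the ER, had a log2 fold change of -0.24 (adjusted p = 0.280), and its groups did not overlap either. Hyou1, a large Hsp70-type exchange factor, was at -0.10 (adjusted p = 0.839) and changed sign without normal brain replicate 2 or GL261 replicate 3.

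With the probe sets used, the smaller chaperone partners had values above 0 that were not called. Manf, a secreted ER stress protein, was at 10.89, 10.66 and 10.95 in normal brain and at 11.25, 11.36, 11.16 and 11.24 in GL261, without overlap (log2 fold change 0.42, adjusted p = 0.0943). Creld2, another stress-induced ER protein, was at 10.16, 9.53 and 9.76 in normal brain and at 10.26, 10.65, 10.57 and 10.21 in GL261 (log2 fold change 0.61, adjusted p = 0.0945). Both had every GL261 array above every normal brain array. Sdf2l1, a partner of ER J-domain proteins, had a log2 fold change of 0.52 (adjusted p = 0.187), Dnajb11 one of 0.35 (adjusted p = 0.243) and Dnajc3 one of 0.31 (adjusted p = 0.295). Those 3, of which the last 2 encode J-domain co-chaperones, overlapped between the groups. The direction of Dnajc3 depended on the probe set. Another of similar brightness was at -0.34 without overlap (adjusted p = 0.225 by limma with all probe sets tested). The remaining Dnajc3 probe sets were at 0.06, -0.09 and -0.15.

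The 3 genes of the glycoprotein folding cycle were not called, and all had values below 0. Canx, the membrane lectin calnexin, was at 12.82, 12.98 and 13.17 in normal brain and at 12.51, 12.57, 12.69 and 12.72 in GL261, without overlap (log2 fold change -0.37, 95% interval -0.68 to -0.07, adjusted p = 0.115). Its soluble relative Calr was at -0.32 (adjusted p = 0.301) and at -0.0502 after quantile normalization, and Uggt1, the glucosyltransferase that returns misfolded glycoproteins to the lectins, at -0.38 (adjusted p = 0.274). Both overlapped between the groups.

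Of 5 disulfide isomerase genes 1 rose and 4 were not called. Pdia4 (probe set 1416497_at) was at 6.61, 3.66 and 5.83 in normal brain and at 7.95, 8.66, 8.48 and 7.78 in GL261. The groups did not overlap, and the normal brain arrays were spread over nearly 3 log2 units, with replicate 2 below the background of its array. Pdia4 rose by 2.85 on the log2 scale (95% interval 1.41 to 4.30, SE 0.66, adjusted p = 0.0198 by limma), the largest change of the 35. Its size depended on the pseudocount, at 3.14 with a pseudocount of 1 and 1.79 with a pseudocount at the median of all values, and it was called with both. Without normal brain replicate 2 the log2 fold change was 2.00 (adjusted p = 0.0356), and without GL261 replicate 3 it was 2.77 and no longer called (adjusted p = 0.0655). The mean of both Pdia4 probe sets gave 1.43 (adjusted p = 0.0901). The other Pdia4 probe set averaged 2.97 in normal brain and 2.98 in GL261, below background in both.

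The isomerase gene Pdia6 was at 10.71, 10.10 and 10.45 in normal brain and at 10.96, 11.43, 11.02 and 10.85 in GL261. These values did not overlap, but the log2 fold change of 0.65 was not called (adjusted p = 0.0604). It was called without normal brain replicate 1 (adjusted p = 0.0450) and with the filter at the 60th percentile (adjusted p = 0.047). Pdia3, the isomerase that works with calnexin and calreticulin, had a log2 fold change of 0.38 without overlap (adjusted p = 0.108). It was called after quantile normalization (0.43, adjusted p = 0.0243), and the mean of its probe sets was at -1.07 (adjusted p = 0.178). Erp44, a retention factor of the early secretory pathway, was at 0.46 (adjusted p = 0.111) and was called without normal brain replicate 2 (0.65, adjusted p = 0.0355). P4hb, the founding member of the family, was at -0.13 with overlap (95% interval -0.47 to 0.21, adjusted p = 0.647), and at 0.0385 after quantile normalization. Sec61b, the 1 translocon subunit listed, was at -0.22 with overlap (adjusted p = 0.539).

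**Figure D4:**
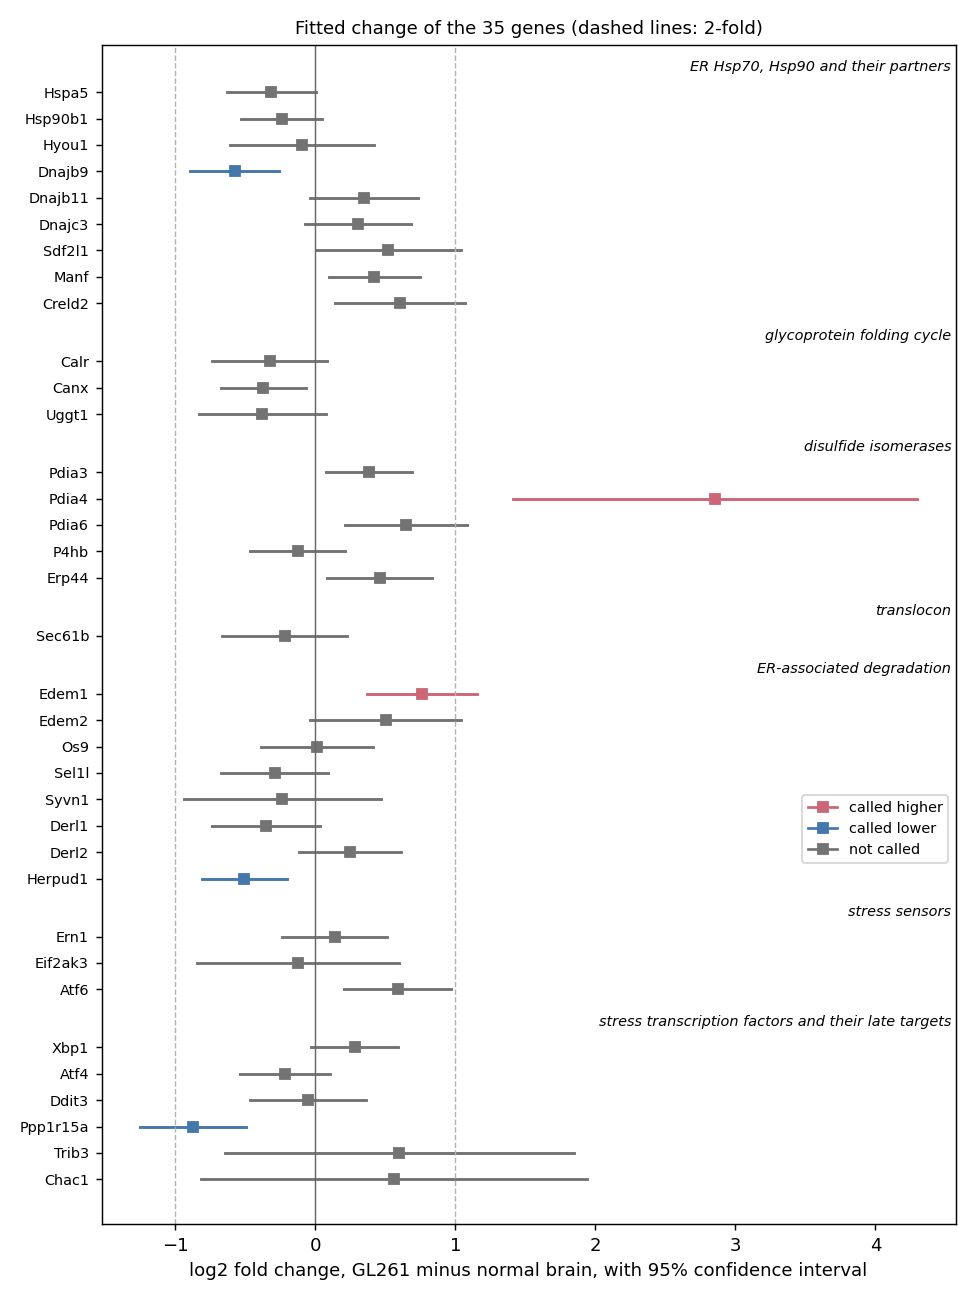
Fitted log2 fold change of GL261 minus normal brain (x axis) with its 95% confidence interval for each of the 35 genes by role, red where called higher, blue where called lower and grey where not called. Dashed lines mark 2-fold, and 26 of the 35 intervals lie between them.

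Of 8 genes of ER-associated degradation 1 rose, 1 fell and 6 were not called. Edem1, a lectin that directs misfolded glycoproteins to degradation, was at 10.94, 10.39 and 10.27 in normal brain and at 11.26, 11.37, 11.29 and 11.24 in GL261. The GL261 arrays were close together and all above normal brain. Edem1 (probe set 1424065_at) rose by 0.76 (SE 0.18, adjusted p = 0.0221 by limma), which is 1.69-fold, and another probe set was at 0.47 (adjusted p = 0.286 with all probe sets tested). The call was lost without normal brain replicate 2 (adjusted p = 0.0615) or 3 (0.0657), or without GL261 replicate 1 (0.0520), 3 (0.0632) or 4 (0.0514).

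Herpud1, a membrane protein that holds the degradation complex together, was at 12.70, 12.73 and 12.68 in normal brain and at 12.23, 12.31, 12.28 and 11.96 in GL261. Normal brain varied little, and GL261 replicate 4 was the lowest array. Herpud1 (probe set 1448185_at) fell by 0.51 (SE 0.14, adjusted p = 0.0391 by limma), which is 1.42-fold lower, and its other probe set was at -0.50 (adjusted p = 0.110 with all probe sets tested). Its call held in 1 of the 7 fits without an array, that without GL261 replicate 2 (adjusted p = 0.0478). It was lost without normal brain replicate 1 (0.0741), 2 (0.101) or 3 (0.0780) and without GL261 replicate 1 (0.0766), 3 (0.0741) or 4 (0.0887). It was also lost with arrays centred on their medians (adjusted p = 0.212) or after quantile normalization (adjusted p = 0.0648).

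The rest of the degradation pathway was not called. Edem2, a relative of Edem1, was at 8.94, 8.85 and 8.72 in normal brain and at 9.42, 9.36, 9.35 and 9.22 in GL261, without overlap (log2 fold change 0.50, adjusted p = 0.224). The channel genes Derl1 and Derl2 stood at -0.35 and 0.25 (adjusted p = 0.227 and 0.382). The ubiquitin ligase gene Syvn1 was at -0.23 (adjusted p = 0.686), its partner Sel1l at -0.29 (adjusted p = 0.324) and the substrate lectin gene Os9 at 0.01 (adjusted p = 0.972), with its sign turned after quantile normalization or centring. Another Os9 probe set was at 0.92 without overlap (adjusted p = 0.0979 with all probe sets tested), and the mean of both gave 0.47 (adjusted p = 0.18). Other Sel1l probe sets were at 0.98, 0.76, 0.52 and -0.10, none of them called. With the probe sets used, these 5 genes overlapped between the groups.

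None of the 3 sensor genes was called. Atf6 came closest, at 10.43, 10.54 and 10.02 in normal brain and at 10.99, 10.97, 10.82 and 10.89 in GL261. Its groups did not overlap (log2 fold change 0.59, 95% interval 0.21 to 0.97, adjusted p = 0.0528), and it was called without normal brain replicate 2 (adjusted p = 0.0484), with the filter at the 60th percentile (adjusted p = 0.044) and with the pseudocount at the median of all values (adjusted p = 0.0488). The other Atf6 probe sets disagreed, with 1.57 in the first (adjusted p = 0.0309 with all probe sets tested) and -0.07 in the second (adjusted p = 0.922). Ern1 was at 10.38, 10.44 and 10.09 in normal brain and at 10.52, 10.38, 10.35 and 10.50 in GL261, with overlap (log2 fold change 0.14, adjusted p = 0.655). Eif2ak3 was at 9.08, 9.16 and 9.27 in normal brain and at 9.75, 9.21, 8.82 and 8.40 in GL261. The GL261 arrays of Eif2ak3 lay on both sides of normal brain (SD 0.57, n = 4, against 0.10, n = 3), and the log2 fold change was -0.12 (adjusted p = 0.852).

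Among the stress transcription factors and their late targets 1 of 6 fell and 5 were not called. Ppp1r15a, which encodes the phosphatase subunit that restores translation after PERK has acted, was at 12.75, 12.91 and 13.28 in normal brain and at 12.05, 11.82, 12.25 and 12.31 in GL261. All GL261 arrays were below all normal brain arrays. Ppp1r15a (probe set 1448325_at) fell by 0.87 (95% interval -1.25 to -0.50, SE 0.17, adjusted p = 0.0101 by limma), which is 1.83-fold lower. It was the only member called in each of the 7 fits without 1 array (adjusted p 0.0148 to 0.0357). The call was lost with arrays centred on their medians (adjusted p = 0.0815) and with the other variance prior (adjusted p = 0.0691).

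Xbp1 was at 11.68, 11.68 and 11.72 in normal brain and at 11.97, 11.75, 12.03 and 12.15 in GL261. These did not overlap, but the log2 fold change of 0.28 (95% interval -0.03 to 0.59) was not called (adjusted p = 0.238), and 3 other Xbp1 probe sets were at 0.17, 0.29 and 0.17. Atf4 was at 12.95, 12.91 and 13.09 in normal brain and at 12.52, 12.71, 12.98 and 12.84 in GL261, with overlap (log2 fold change -0.22, adjusted p = 0.377). Its probe sets differed in size, since another was at -0.74 (adjusted p = 0.0447 with all probe sets tested). Ddit3, which encodes the death-associated factor CHOP, was at 11.81, 11.95 and 11.39 in normal brain and at 11.26, 11.72, 11.84 and 11.85 in GL261, a log2 fold change of -0.05 (95% interval -0.46 to 0.36, adjusted p = 0.899) whose sign turned without normal brain replicate 2 or GL261 replicate 1. The late targets Trib3, a pseudokinase gene, and Chac1, a glutathione-degrading enzyme gene, were at 0.60 and 0.56 with wide intervals (-0.65 to 1.84 and -0.82 to 1.94). Both overlapped between the groups.

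**Figure D5:**
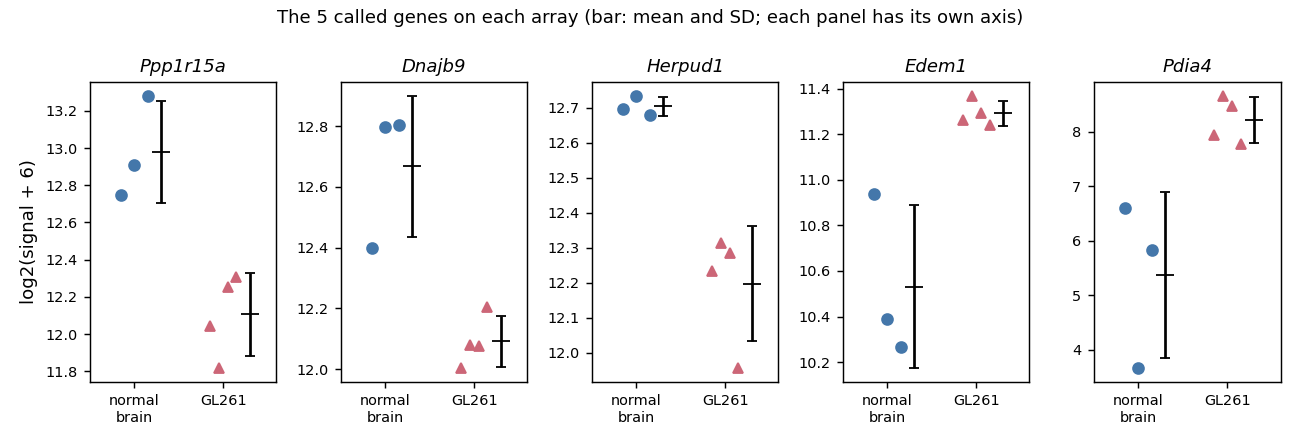
log2(signal + 6) of the 5 called genes on each array (y axis, a separate scale per panel), with circles for the 3 normal brain arrays, triangles for the 4 GL261 arrays and bars for the mean and SD of each group. No group overlaps the other in any panel, and the normal brain arrays of Pdia4 spread from 3.66 to 6.61.

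Other genes of the same organelle were examined by a list of 108, of which 103 had a probe set and 101 were tested. Of these 8 rose and 1 fell (8.91% called, against 10.1% of all genes), and the median log2 fold change was 0.17. Of 19 genes of translocation and signal peptide removal and 15 of N-glycan transfer and trimming limma called 0, with 5 and 1 at an unadjusted p under 0.05. The smallest p-values there were those of Sec63, a translocon partner of BiP (0.84, adjusted p = 0.0702), and Rpn2, an oligosaccharyltransferase subunit (0.38, adjusted p = 0.128). Of 22 oxidation, isomerase and chaperone genes the isomerase gene Txndc5 rose by 0.74 (adjusted p = 0.0450), a call lost in each fit without 1 array (adjusted p 0.0545 to 0.123). Of 20 degradation genes Erlec1, an ER lectin, rose by 0.88 (adjusted p = 0.0275) and Ufd1, a cofactor of the extracting ATPase, by 0.68 (adjusted p = 0.0296). With the mean of all its probe sets Erlec1 was at 0.26 and not called (adjusted p = 0.643).

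The stress signalling and ATF4 target list held 6 of the 9 calls among 25 genes tested (24% called, against 10.1% of all genes). Cebpb, a transcription factor of stress and macrophage activation, rose by 0.99 (adjusted p = 0.0120), and Psat1, an enzyme of serine synthesis, by 0.86 (adjusted p = 0.0118). Both were called in each fit without 1 array (adjusted p up to 0.0447 and 0.0461). Both calls were lost with the other variance prior (adjusted p = 0.0742 and 0.0535), and that of Cebpb with arrays centred on their medians (adjusted p = 0.0586). The alanyl-tRNA synthetase gene Aars rose by 0.75 (adjusted p = 0.0454). Ddit4 rose by 0.87 (adjusted p = 0.0373 by limma), although its groups overlapped. Bcl2l11 rose by 0.52 without overlap (adjusted p = 0.0489 by limma). Ddit4 and Bcl2l11 were not followed singly in the fits without 1 array. Atf3, an immediate stress factor, fell by 0.56 (adjusted p = 0.0403), from 13.39, 13.47 and 13.69 in normal brain to 12.79, 12.77, 13.20 and 13.06 in GL261. Calls were lost without 1 array in 5 of 7 fits for Erlec1 (adjusted p up to 0.0836) and Ufd1 (up to 0.0897), and in 6 of 7 for Aars (up to 0.110) and Atf3 (up to 0.127). Other ER genes called higher numbered 5 without GL261 replicate 2, 3 without normal brain replicate 3 or GL261 replicate 1 and 2 without normal brain replicate 2 or GL261 replicate 3 or 4. With 1 array left out, 0 were called lower in 6 of the 7 fits, where limma left 1 to 7 at an unadjusted p under 0.05.

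All 9 listed macrophage and microglia markers were above background in both groups (summed signal 55800 to 68700 in normal brain, 44500 to 56600 in GL261). Of these, 3 fell, namely P2ry12 (-1.28), Cx3cr1 (-0.71) and Tmem119 (-0.61). Adgre1, Csf1r, Cd68, Itgam, Aif1 and Ptprc were not called. Being above background does not by itself bear out the macrophage label. No T and NK cell marker was at background throughout either group either. Lists for other cell types moved with the comparison, and their part in these results was not tested. Of 10 measured B and plasma cell markers 6 fell and 1 (Prdm1) rose, and their summed signal was 10300 to 13300 in normal brain and 5050 to 7100 in GL261, with none at background throughout. Among those that fell were the immunoglobulin joining chain gene Jchain (-1.11, adjusted p = 0.00913) and the B cell coactivator gene Pou2af1 (-2.64, adjusted p = 0.000503). Prdm1 rose by 1.85. By limma Mzb1 (-0.32, adjusted p = 0.754), Sdc1 (0.56, adjusted p = 0.650) and Tnfrsf17 (-1.96, adjusted p = 0.0666) of the same list were not called. Of 8 T and NK cell markers 3 rose (4950 to 6140 against 6900 to 13000), and of 7 oligodendrocyte precursor markers 3 rose (103 to 496 against 804 to 1410), with Cspg4 and Olig2 at background on all normal brain arrays. Of 7 neutrophil markers 6 fell (39600 to 50900 against 16400 to 22800), with Elane at background on all GL261 arrays, and of 7 endothelial markers 3 fell (2490 to 3460 against 453 to 1820). Of 7 pericyte and fibroblast markers 3 rose (514 to 1790 against 2500 to 4140), and of 6 pituitary and choroid plexus markers 2 fell (4800 to 5730 against 132 to 188), with Prl at background on all GL261 arrays. The ratio of 3' to 5' Gapdh control signal, a measure of RNA integrity, averaged 2.41 ± 0.0243 (SD, n = 3) on the normal brain arrays against 1.75 ± 0.127 (SD, n = 4) on those of GL261 (two-sided exact permutation p = 0.0286, the smallest that the 35 splits allow). The same ratio for actin averaged 1.57 ± 0.116 (SD, n = 3) against 1.42 ± 0.0715 (SD, n = 4), a smaller difference (two-sided exact permutation p = 0.143). In sorted bulk samples, fewer cells of a type and less RNA per cell cannot be told apart.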

How the data were processed

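The authors deposited microarray intensities made with MAS5, per the submitters' processing notes; for its version and scaling, the labels were silent. Analysis used log2(signal + 6), with 6 as the rounded 20th percentile of all values. Of 45101 probe sets, 64 were controls, 34945 carried 1 gene symbol, 932 several and 9160 none, by the platform annotation; only those with 1 symbol were used, with the brightest kept per gene. Genes with a mean above the 40th percentile (4.925) were tested with limma 3.58.1 in R 4.3.3 (lmFit and eBayes with a variance prior that follows the signal), with Benjamini-Hochberg adjustment over 12125 genes and a threshold of 0.05. Only 7 arrays limit the precision. The procedure was tested on simulated data.

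Every member was accounted for. Called members, the sensor and transcription factor genes and the uncalled genes with the smallest p-values are given with values; of other ER genes, up to 3 called per direction whose groups do not overlap, or otherwise the gene with the smallest p, are named. Members and lists were chosen with earlier results of these data known. Alternatives changed the pseudocount, filter, normalization, variance prior, probe set rule and replicate block, and left out each array. Background was the 95th percentile of 27 unspiked control probe sets on each array. Promoter windows came from RefSeq (GRCm38.p6) and were matched by symbol, with 31 of 35 members found.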

Additional observations from a re-analysis of the deposited data

Results flagged for a closer look

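Of 44 genes examined, 1 had an array that lay apart from the others of its group. Os9, the substrate lectin of ER-associated degradation, was at 11.71 on the log2 scale in GL261 replicate 1, against 11.28 to 11.33 in the other GL261 arrays (gap over range 0.886, above Dixon's critical value for 4 samples). Chance alone sets apart an array in about 1 in 20 groups of this size.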

How the results depend on the processing

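Every called member kept its direction in all alternatives run, at most 18 for a gene, while 11 of the 30 uncalled members changed sign in some and 6 were called in some. With a variance prior that does not follow the signal, limma called 0 members higher and 0 lower (7 and 3 at an unadjusted p under 0.05), and 1 other ER gene higher and 0 lower (2 lower at an unadjusted p under 0.05). Median centring left 0 members lower, and 1 other ER gene higher and 0 lower, with none lower at an unadjusted p under 0.05. The mean of all probe sets left 0 members higher and 4 other ER genes higher, and moved the members' median log2 fold change to 0.0852. Other ER genes called higher numbered 4 with no filter, and 5 with all probe sets tested separately, an alternative chosen after seeing the data. After quantile normalization 2 other ER genes were called lower. The filter at the 60th percentile moved the members' median to -0.0727. Centring on the median of the genes tested, also chosen after seeing the data, left 3 other ER genes higher and 0 lower (8 at an unadjusted p under 0.05), and moved the medians to -0.0784 for the members, -0.0552 for all genes tested and 0.0738 for other ER genes.

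Leaving out 1 array gave 0 to 3 members higher, 1 to 2 lower, 2 to 8 other ER genes higher, 0 to 1 lower, and a members' median of -0.0514 to 0.133. The replicate numbers were not stated to pair the arrays. Same-numbered arrays had deviations correlated at 0.0792, -0.00754 and 0.031, and other pairs at -0.0678 to 0.0551. So few arrays cannot settle whether they were paired. With the replicate number as a block, 2 members were higher and 3 lower, 3 other ER genes were higher and 3 lower, the members' median was 0.0905, and 49.9% of all called genes were higher. Only GL261 had a replicate 4, so the block fit drew no fold change from that array. Its members' median was the same as in the fit without GL261 replicate 4. Under the block Herpud1 was no longer called (adjusted p = 0.0596) and Calr was (adjusted p = 0.0244).

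Signs turned for uncalled genes only, and the causes were not tested. With the mean of all probe sets Hyou1 was at 0.2987, Dnajc3 at -0.0417, Canx at 0.0235, Pdia3 at -1.07 and Sel1l at 0.37. Quantile normalization gave P4hb 0.0385 and Os9 -0.0056. Os9 was at -0.0004 with median centring and at -0.0784 with centring on the genes tested. Eif2ak3 was at 0.0905 with the replicate block and without GL261 replicate 4. Without normal brain replicate 2, Hyou1 was at 0.0583, Ddit3 at 0.0669 and Chac1 at -0.22. Without normal brain replicate 3, Os9 was at -0.17 and Trib3 at -0.0145. Without GL261 replicate 1, Os9 was at -0.0868 and Ddit3 at 0.0874, and without GL261 replicate 3 Hyou1 was at 0.025. The opposite ends of these ranges without 1 array were -0.31 for Hyou1 and -0.21 for Ddit3 (both without normal brain replicate 3), -0.36 for Eif2ak3 (without GL261 replicate 1), 1.12 for Trib3 (without normal brain replicate 1) and 1.16 for Chac1 (without normal brain replicate 3). Signal over background limits Pdia4, whose normal brain replicate 2 was below background.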

Other observations

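The ER stress element was also present in the windows of 29 genes outside the 35, of which 7 were tested. Of these 7, 3 had log2 fold changes above 0 and 4 below 0, with a median of -0.26. Acacb, a mitochondrial acetyl-CoA carboxylase gene, was called lower (-2.91, adjusted p = 0.0223 by limma). The oxidase gene Ero1b was at 0.01 (adjusted p = 0.98) and the degradation channel gene Derl3 at 0.27 (adjusted p = 0.814).

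Probe sets of a gene did not always share a direction. The 35 genes had 82 probe sets, and 26 genes had several. Of the 47 not used above 40 could be tested, with adjustment over 22632 probe sets, and 24 of the 40 had the sign of the probe set used. Of the 40, 2 were called, 1 of Atf6 (1.57) and 1 of Atf4 (-0.74). The other Pdia3 probe set was at -2.52 (adjusted p = 0.101), against 0.38 for the one used.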
